A study of Rattus norvegicus with 18 samples.

Results

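The transcripts compared here are those whose level after recovery from paradoxical sleep deprivation differed from the home cage by one amount in the hippocampal formation and by another in the neocortex of the same rats. For each pool of 6 rats the log2 signal of the neocortex was subtracted from that of the hippocampal formation, and these differences were compared between recovery and control pools. The recovery and control groups took in 12 of the 18 arrays of the series and 4 of its 6 pools of animals, 2 recovery and 2 control, so each structure had n = 2 pools a state. All 18625 probe sets that passed a filter on dim values were tested.

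The animals were male Sprague-Dawley rats, housed singly and fitted with electrodes for the electroencephalogram and the electromyogram. Control rats stayed in the home cage. Recovery rats had 72 h of paradoxical sleep deprivation by the flowerpot method, in which a platform over water wakes a rat that loses muscle tone, and then 6 h in which they could sleep. The deprived state, at 78 h without recovery, entered the fit to help estimate the spread. Its pools also counted in the mean signal used for the filter and for choosing 1 probe set per listed gene. Each state held 12 rats in 2 sets of 6 (set 1 and set 2), total RNA was pooled within a set, and set 1 was measured on 2 arrays a structure, which were averaged. Control rats spent no time on platforms, so sleep history and housing on platforms cannot be told apart.

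Paradoxical sleep, or rapid eye movement sleep, is a state in which the hippocampus shows a theta rhythm and the neocortex a wake-like electroencephalogram. Activity-regulated genes such as Arc, Homer1 and Klf10 are transcribed in neurons within minutes to hours of strong synaptic input, and their products adjust synapses. The hippocampal formation lies against the choroid plexus of the lateral ventricle, whose epithelium makes cerebrospinal fluid and large amounts of transthyretin (Ttr).

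No probe set passed the test for a recovery difference that was unequal between the structures. Of 30 activity-regulated genes 23 had a higher recovery minus control difference in the hippocampal formation than in the neocortex, Klf10, Arc, Junb and Homer1 among them. The gap was small, with a median of 0.146 log2 over the 30 genes, which were chosen with earlier results of these data known. Of 6 choroid plexus genes measured, Ttr, Enpp2, Sostdc1 and Folr1 lay below control in the hippocampal formation and above it in the neocortex in both sets, and Aqp1 lay the other way. Hbb, Bdnf and Sncg were displaced in both structures by about the same amount.

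In what follows the recovery difference is recovery minus control within a structure, and the interaction is the recovery difference of the hippocampal formation minus that of the neocortex, both in log2 units. Paired values are given for set 1 and then set 2. By limma 0 of 18625 probe sets had an interaction with an adjusted p under 0.05 (0%), and the smallest adjusted p was 0.340. At an unadjusted p under 0.05 there were 995 (5.34%), of which 486 lay above 0 (2.61%) and 509 below 0 (2.73%). The median standard error of an interaction was 0.171, which sets the scale against which the values below are to be read. With the 4 recovery and control differences alone, which leave 1 residual degree of freedom, 4 probe sets were called, of which Sostdc1 alone had a gene symbol. Leaving out 1 pool of animals gave 113 calls for set 1 control, 38 for set 2 control, 9 for set 1 recovery, 4 for either deprived pool, and 0 for set 2 recovery, where the smallest adjusted p was 0.0890. An exact permutation test of 2 values against 2 cannot give a two-sided p below 0.333, so none was run for single genes.

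Within the hippocampal formation the recovery difference of 0 probe sets passed (0%), with a smallest adjusted p of 0.355 and 1074 probe sets at an unadjusted p under 0.05 (5.77%). Within the neocortex 1 passed (0.00537%), with 1367 at an unadjusted p under 0.05 (7.34%). That probe set is assigned to 2 haemoglobin beta symbols, so no single gene is named for it. Its neocortical signal was 1198 and 688 in control and 446 and 334 in recovery, and its hippocampal signal was 1179 and 569 in control and 314 and 297 in recovery. The recovery pools lay below the control pools in both structures, and its interaction was -0.19 (SE 0.146, adjusted p = 0.970), so the single neocortical call was not a transcript of the neocortex alone.

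The sets shared little of the interaction. Over 18625 probe sets the interaction of set 1 correlated with that of set 2 at r = -0.0018, a description across probe sets that share arrays. The interaction lay above 0 in both sets for 26.1% of probe sets and below 0 in both for 23.6%. The recovery difference correlated between the sets at r = 0.011 in the hippocampal formation and at r = 0.063 in the neocortex. Between the structures of the same rats it correlated at r = 0.184 in set 1 and at r = 0.096 in set 2. The hippocampal minus neocortical difference of the control pools had an SD over probe sets of 0.543 in set 1 and 0.353 in set 2. Values are given by set throughout.

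**Figure D1:**
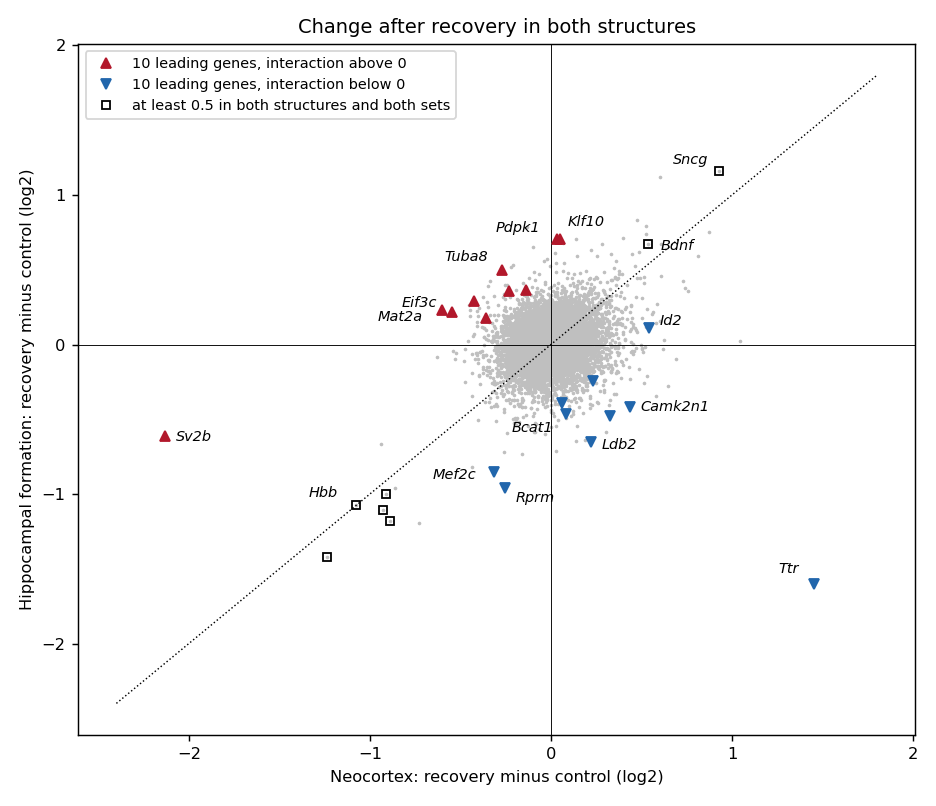
Recovery difference in the neocortex (x axis, log2) against the hippocampal formation (y axis, log2), fitted over both sets, for the 11601 probe sets with a mean log2 signal of at least 6 in grey. Red and blue triangles mark the 10 leading genes with an interaction above 0 and the 10 below 0, open squares mark the 7 probe sets displaced by at least 0.5 in every set of both structures, and the dotted line marks equal differences. Ttr lies at the lower right and Sv2b at the left, while Hbb, Sncg and Bdnf lie close to the dotted line.

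The structure labels were checked first against marker genes. Over all 18625 probe sets, 3559 had a higher and 3609 a lower hippocampal than neocortical signal in all 4 recovery and control pools. Of 15 hippocampal neuron markers measured, 12 had a higher hippocampal signal in all 4 pools, and of 18 neocortical neuron markers 10 had a lower one and 2 a higher one. Of 12 striatal neuron markers 11 had a lower hippocampal signal in all 4 pools. Hippocampal markers were thus higher in the samples labelled hippocampal formation, and striatal markers were measured in those labelled neocortex.

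Among activity-regulated genes the interaction leaned above 0. Of 30 measured, 23 lay above 0 and 7 below, against 9547 and 9078 of 18625 over all probe sets. In both sets 17 were above 0 and 3 below (26.1% and 23.6% over all). At an unadjusted p under 0.05, 6 had an interaction above 0 against 0 below (background 2.61% and 2.73%). The 6 became 2 with no replicate block, 2 when set 1 recovery was left out and 4 when either control pool was, and with set 1 control left out 2 members lay below 0 at that p. The median interaction was 0.146 (0.220 and 0.123 by set), beside 0.006 over all probe sets. The median recovery difference of the list was 0.305 in the hippocampal formation, where 28 of 30 lay above 0 (9666 of 18625 over all). It was 0.157 in the neocortex, where 22 of 30 did (9342 of 18625 over all). The list was thus above control in both structures, and further in the hippocampal formation. Its members were chosen with earlier results of these data known, so these counts and medians are a description and not a test. No member passed the adjusted test in the interaction or within a structure (adjusted p of limma under 0.05).

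Klf10, a zinc finger transcription factor of the immediate early kind, had the smallest interaction p of the list. Its hippocampal signal was 145 and 139 in control and 277 and 195 in recovery, and its neocortical signal was 131 and 141 in control and 156 and 128 in recovery. The hippocampal recovery pools lay above both control pools, while the neocortical groups overlapped. The recovery difference was 0.93 and 0.49 in the hippocampal formation and 0.25 and -0.15 in the neocortex, and the interaction was 0.66 (SE 0.124, 1.58-fold, adjusted p = 0.450).

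Arc encodes a postsynaptic protein that controls the removal of AMPA receptors, and its mRNA marks recently active neurons. Its hippocampal signal was 113 and 97.2 in control and 145 and 148 in recovery, and its neocortical signal was 80.5 and 103 in control and 78.5 and 110 in recovery. Recovery lay above control in the hippocampal formation with no overlap, and the neocortical groups overlapped. The interaction of Arc was 0.46 (SE 0.142, adjusted p = 0.742), 0.40 and 0.52 by set. Junb, a subunit of the transcription factor AP-1, had the same order, with 71.1 and 45.5 in control and 90.7 and 65.2 in recovery in the hippocampal formation against 61.4 and 56.7 and then 58.9 and 51.2 in the neocortex. Its hippocampal groups overlapped because the sets differed in level, though recovery was above control within each set, by 0.35 and 0.52.

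Ptgs2, the inducible cyclooxygenase of excitatory neurons, was above control in both structures. The hippocampal signal was 203 and 244 in control and 365 in both recovery pools, and the neocortical signal was 150 in both control pools and 219 and 179 in recovery. Neither pair of groups overlapped, and the interaction was 0.31 in set 1 and 0.32 in set 2 (adjusted p of limma 0.859). Per1, a clock gene that also responds to activity and to glucocorticoids, differed in another way. Its neocortical signal was 63.8 and 81.3 in control and 42.2 and 58.7 in recovery, below control in both sets (-0.60 and -0.47), while its hippocampal signal was 43.2 and 67.6 in control and 63.9 and 65.7 in recovery. The interaction of Per1 was 0.79 (SE 0.213, adjusted p = 0.658). Ier5, an immediate early gene of the stress response, had the smallest of the 6 interactions, 0.39 and 0.19 by set.

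Bdnf, the neurotrophin that strengthens active synapses, had a hippocampal signal of 167 and 121 in control and 257 and 200 in recovery, and a neocortical signal of 64.5 and 50.3 in control and 92.9 and 73.5 in recovery. The groups overlapped in neither structure, the recovery differences were 0.62 and 0.72 against 0.53 and 0.55, and the interaction was 0.13 (SE 0.160, adjusted p = 0.986). Fos and Egr2, transcription factors of the first wave, were at 1.44 and 1.32 in the hippocampal formation of set 1 but at 0.23 and 0.11 in that of set 2. Scg2 and Vgf, precursors of secreted peptides, and Sik1, a kinase induced by cAMP, were the 3 members below 0 in both sets.

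**Figure D2:**
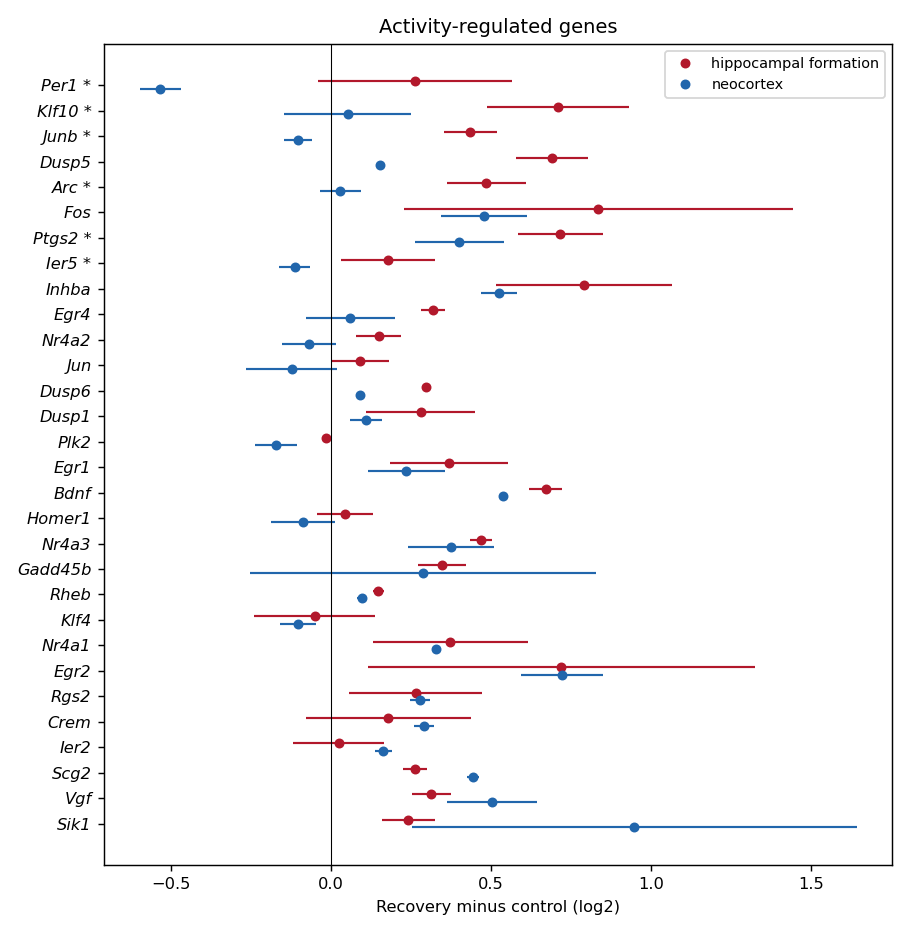
Recovery minus control (x axis, log2) for the 30 activity-regulated genes measured, ordered by interaction, in the hippocampal formation (red) and the neocortex (blue). Points are means over both sets, lines join the values of set 1 and set 2, and an asterisk marks an unadjusted interaction p under 0.05; most red points lie to the right of their blue partners, and Per1, Klf10, Junb, Arc, Ptgs2 and Ier5 carry the asterisk.

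Homer1 is a case where the transcript measured matters. The gene gives long forms, which build the postsynaptic scaffold, and short activity-induced forms, which loosen it, and which probe set reads which form was not determined here. All 5 of its kept probe sets had an interaction above 0, from 0.13 to 1.18, and 3 of them had an unadjusted p under 0.05. One Homer1 probe set read 125 and 116 in the control and 336 and 204 in the recovery hippocampal formation, and 110 and 136 in the control and 200 and 173 in the recovery neocortex. Recovery lay above control in both structures without overlap, by 1.42 and 0.82 in the hippocampal formation and 0.87 and 0.34 in the neocortex, and the interaction was 0.51 (SE 0.150, adjusted p = 0.719). The brightest probe set read 507 and 492 and then 556 and 477 in the hippocampal formation and had an interaction of 0.13. The value of 1.18 rests on a control signal of 12.0 in the hippocampal formation of set 1, under the filter level of 19.7, so its size is not settled.

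**Figure D3:**
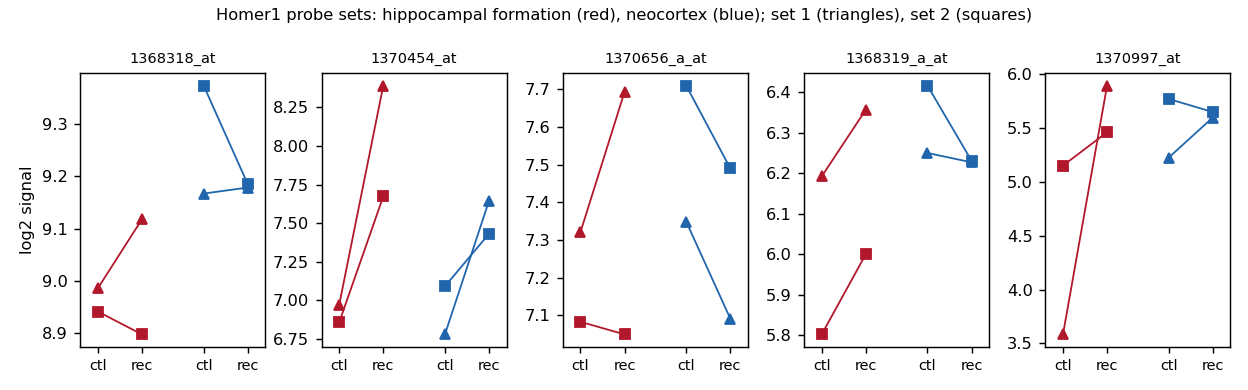
Log2 signal (y axis) of the 5 Homer1 probe sets in control (ctl) and recovery (rec) pools, with lines joining the pools of one set (triangles set 1, squares set 2), hippocampal formation in red and neocortex in blue, each panel on its own scale. For the probe set with control hippocampal signals of 125 and 116 all lines go up and the red ones are steeper, while for the brightest the pools lie within a narrow range.

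The start regions of the 6 activity-regulated genes with the smallest p are of interest because members of this list answer to factors that bind the cAMP response element. Of the 30 genes, 25 had an entry in RefSeq's promoter table (build GRCr8), and the 250 bases before the start were searched for TGACG or its reverse complement CGTCA (the half-site of that element, which the full palindrome TGACGTCA contains), for the E-box CACGTG (a palindrome), and on the strand of the gene for TATAAA. A gene with several listed starts counted once, as a match if any of its regions held one, so genes with more starts had more chances. The shares below are per gene and were not adjusted for the number of starts. A half-site was present in 17 of 25 (68%), against 20% of all 27457 genes with an entry, and the full element in 6 of 25 (24%) against 1.78%. CACGTG was present in 5 of 25 (20%) against 6.18%, and TATAAA in 4 of 25 (16%) against 8.93%. Of the 6 genes above, 4 had an entry, and the regions are shown for Junb, Ptgs2 and Ier5, which hold a match, and for Per1, which holds none, with matches in capitals.
Junb, chr19:40080876-40081125, + strand: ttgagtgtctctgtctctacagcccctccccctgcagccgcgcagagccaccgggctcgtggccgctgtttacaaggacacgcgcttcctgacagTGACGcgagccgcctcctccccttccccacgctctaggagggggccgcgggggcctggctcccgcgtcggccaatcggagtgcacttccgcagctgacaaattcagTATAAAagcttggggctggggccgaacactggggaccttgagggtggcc
Ptgs2, chr13:64713813-64714062, + strand: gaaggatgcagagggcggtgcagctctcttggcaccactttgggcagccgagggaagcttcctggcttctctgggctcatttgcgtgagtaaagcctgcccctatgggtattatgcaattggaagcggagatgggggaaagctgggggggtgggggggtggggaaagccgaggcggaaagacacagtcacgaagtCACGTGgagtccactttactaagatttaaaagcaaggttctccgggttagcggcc
Ier5, chr13:69822543-69822792, - strand: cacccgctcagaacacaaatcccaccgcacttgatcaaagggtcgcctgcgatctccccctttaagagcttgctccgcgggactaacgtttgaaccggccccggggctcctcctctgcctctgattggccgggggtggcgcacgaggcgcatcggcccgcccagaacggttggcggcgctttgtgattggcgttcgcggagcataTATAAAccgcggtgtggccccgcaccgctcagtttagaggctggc
Per1, chr10:54304126-54304375, + strand: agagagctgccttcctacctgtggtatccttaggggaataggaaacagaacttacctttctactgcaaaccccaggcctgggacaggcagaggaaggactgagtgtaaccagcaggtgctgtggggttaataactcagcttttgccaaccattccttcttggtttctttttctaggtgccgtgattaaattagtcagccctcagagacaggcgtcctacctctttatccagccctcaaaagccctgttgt
Junb held a half-site starting 155 bases and TATAAA starting 49 bases before the start, Ptgs2 an E-box at 55 bases and Ier5 TATAAA at 45 bases. Among the 4 genes 1 thus held a half-site in this window. The letters are a description and not a binding site.

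Genes displaced in the hippocampal formation and little in the neocortex were sought by size. Among the 11601 probe sets with a mean log2 signal of at least 6, 28 differed from control by at least 0.5 in the same direction in both sets in the hippocampal formation and 17 in the neocortex. Of these 7 were in both lists with the same direction and 0 in both with opposite directions. An interaction of at least 0.5 in size in both sets had the same sign in 31 probe sets and opposite signs in 28. A probe set was put in a class of 1 structure when the difference was at least 0.5 in both sets of that structure, under 0.25 in both sets of the other, with an unadjusted interaction p under 0.05. It was classed as opposite when it was at least 0.25 in every set with opposite directions in the structures. These classes held 7 of 11601 probe sets (0.0603%), of which 5 had a single gene symbol, and with only the first of the 2 arrays of set 1 they held 23.

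Pdpk1 was the single named gene of the hippocampal class above control. It encodes PDK1, the kinase that switches on Akt, Sgk and related kinases. Its hippocampal signal was 76.4 and 190 in control and 111 and 347 in recovery, and its neocortical signal was 79.2 and 253 in control and 84.0 and 249 in recovery. The sets differed more than the states, so the groups overlapped, but within each set the hippocampal recovery pool was higher, by 0.54 and 0.87, against 0.09 and -0.02 in the neocortex. The interaction was 0.67 (SE 0.147, 1.59-fold, adjusted p = 0.488). A brighter Pdpk1 probe set, with signals of 862 and above, gave an interaction of 0.096. The class below control held 1 probe set with no symbol.

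Hspa2, a member of the HSP70 chaperone family, was the named gene of the neocortical class above control. The neocortical signal was 51.6 and 58.1 in control and 86.7 and 90.3 in recovery, with no overlap, and the hippocampal signal was 50.6 and 81.2 in control and 50.6 and 71.1 in recovery. The neocortical difference was 0.75 and 0.64 and the interaction -0.79 (SE 0.215, adjusted p = 0.660). Its second probe set had an interaction of -0.21 and a neocortical difference of 0.03 and -0.02. The class below control in the neocortex held 1 probe set, also with no symbol.

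The opposite class held Ttr, Arhgap6 and Coch, each below control in the hippocampal formation and above it in the neocortex. Arhgap6 had signals of 70.0 and 142 in the control and 48.7 and 117 in the recovery hippocampal formation, and of 100.5 and 88.3 in the control and 124 and 111 in the recovery neocortex. Its neocortical groups did not overlap and its hippocampal groups did. Coch, which encodes the secreted protein cochlin, had hippocampal signals of 63.9 and 184 in control and 48.0 and 109 in recovery, and neocortical signals of 258 and 335 in control and 323 and 405 in recovery. The interactions were -0.73 (SE 0.169, adjusted p = 0.538) and -0.89 (SE 0.235, adjusted p = 0.658).

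The 10 leading genes in each direction were then taken by the smallest interaction p among those with 1 sign in both sets, and all had an adjusted p between 0.340 and 0.538. Above 0 they were Sv2b, Eif3c, Klf10, Tuba8, Ttc3, Rnf227, Plekhb2, Clstn3, Pdpk1 and Mat2a, and below 0 Ldb2, Camk2n1, Mef2c, Bcat1, Ccn3, Id2, Rprm, Wwc1, Ttr and Vamp2. In 11 of the 20 the structures had opposite signs in both sets. For 12 of the 20 another probe set was kept, 13 in all, of which 8 had the same sign, 5 the opposite sign and 12 a size under 0.25. Only the second probe set of Mef2c had the same sign and an unadjusted p under 0.05. The other probe sets of Ttc3 gave -0.14 and 0.088, that of Rnf227 -0.009 and that of Plekhb2 -0.036.

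**Figure D4:**
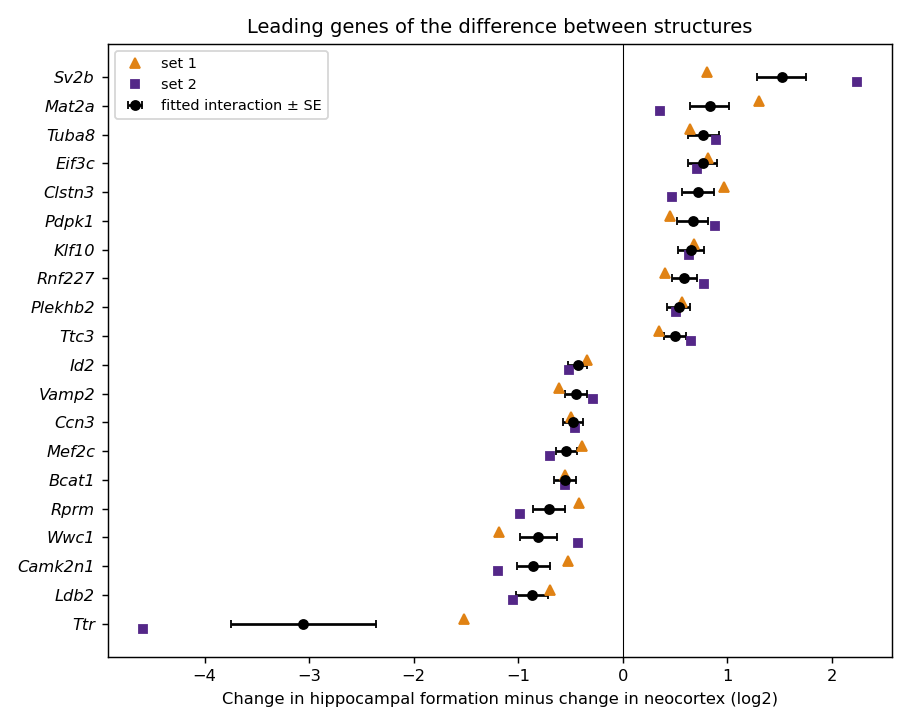
Interaction (x axis, log2; recovery difference of the hippocampal formation minus that of the neocortex) of the 20 leading genes, with black points and bars for the fitted value ± SE, orange triangles for set 1 and purple squares for set 2. Values run from 1.52 for Sv2b to -3.05 for Ttr, both sets lie on one side of 0 by the rule, and the sets lie far apart for Ttr, Sv2b and Mat2a.

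The synaptic vesicle genes among them went in different directions. Sv2b, a vesicle glycoprotein of glutamatergic terminals, read 1503 and 1650 in the control and 721 and 1472 in the recovery hippocampal formation, and 1476 and 1882 in the control and 406 and 356 in the recovery neocortex. Recovery lay below control in both structures without overlap, further in the neocortex, and the interaction was 1.52 (SE 0.233, 2.87-fold, adjusted p = 0.340). The second Sv2b probe set did not follow it, with neocortical signals of 667 and 701 in control and 494 and 680 in recovery and an interaction of 0.087. The deprived pools read 1538 and 448 in the hippocampal formation and 1809 and 423 in the neocortex, so the first probe set was also low in the deprived pool of set 2 in both structures. Vamp2, the vesicle SNARE synaptobrevin, read 850 and 976 and then 557 and 866 in the hippocampal formation against 1002 and 897 and then 1005 and 971 in the neocortex, with an interaction of -0.45 (SE 0.105).

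Of genes of transcription, Mef2c, a factor that restrains excitatory synapse number, had the same direction on both probe sets. The first read 779 and 927 in the control and 381 and 580 in the recovery hippocampal formation, without overlap, against 2484 and 1639 in the control and 1592 and 1660 in the recovery neocortex, which overlapped. Its interaction was -0.54 (SE 0.101, adjusted p = 0.450), and that of the second probe set -0.33 (SE 0.100, adjusted p = 0.719). The deprived pools read 725 and 383 in the hippocampal formation and 2279 and 819 in the neocortex on the first probe set, so it was also low in deprived set 2. Mef2c is also on the list of neocortical neuron markers. Ldb2, a cofactor of LIM homeodomain proteins, read 124 and 151 and then 75.8 and 100.4 in the hippocampal formation, without overlap, and 172 and 127 and then 170 and 175 in the neocortex, with an interaction of -0.87 (SE 0.150, adjusted p = 0.450). Id2, an inhibitor of basic helix-loop-helix factors, had an interaction of -0.43 on one probe set and 0.245 on the other, so it has no settled direction.

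Bcat1, the cytosolic aminotransferase of branched-chain amino acids, had equal values in both sets. Its hippocampal signal was 463 and 512 in control and 347 and 358 in recovery, without overlap, and its neocortical signal was 244 and 471 in control and 267 and 483 in recovery. The interaction was -0.55 in each set (SE 0.107, adjusted p = 0.450), while a brighter probe set gave -0.087. Ccn3, a matricellular protein, was nearly as even, at -0.49 and -0.46. Mat2a, which makes S-adenosylmethionine, and Eif3c, a subunit of translation initiation factor 3, were below control in the neocortex (-0.88 and -0.32, and -0.67 and -0.43). Their other, brighter probe sets had interactions of -0.005 and 0.149.

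Camk2n1, an inhibitor of the kinase CaMKII, was above control in the neocortex (0.62 and 0.25) and at 0.10 and -0.94 in the hippocampal formation. Its second, brighter probe set lay below control in the neocortex (-0.44 and -0.08), with an interaction of -0.195, so its neocortical direction is not settled. Wwc1, the scaffold KIBRA, was above control in the neocortex by 0.33 and 0.32 and below it in the hippocampal formation by -0.85 and -0.10, and its dimmer second probe set had an interaction of -0.087. Tuba8, an alpha tubulin, was the reverse, with 226 and 163 in the control and 282 and 260 in the recovery hippocampal formation against 97.1 and 115 in the control and 77.5 and 98.8 in the recovery neocortex. Its hippocampal groups did not overlap, the neocortical ones did, and no second probe set was kept (interaction 0.77, SE 0.147, adjusted p = 0.450).

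Choroid plexus markers had the largest median interaction by size of the 28 lists. Of 14 listed, 6 passed the filter on dim values, and since that filter used the mean of all pools these 6 do not stand for the whole list. Of the 6, 4 had an unadjusted p under 0.05 below 0 (Ttr, Sostdc1, Enpp2 and Folr1) and 1 above 0 (Aqp1), beside a background of 2.73% and 2.61%. The median interaction was -1.04 (-0.65 and -1.44 by set). That median ranged from -1.87 when set 1 control was left out to -0.28 when set 2 control was left out. Ttr, the thyroid hormone carrier, read 2711 and 1253 in the control and 1123 and 329 in the recovery hippocampal formation, and 1783 and 114 in the control and 2123 and 722 in the recovery neocortex. The set 2 control neocortex was the lowest of the 8 pools and set 1 was higher than set 2 in every group, and the neocortical groups overlapped while the hippocampal ones did not. Its interaction was -3.05 (SE 0.691, -1.52 and -4.59 by set, adjusted p = 0.538). It was -4.95 when set 1 control was left out and -1.16 when set 2 control was.

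Of the other choroid genes, Sostdc1, a secreted antagonist of BMP and Wnt, read 95.7 and 44.2 and then 30.1 and 20.2 in the hippocampal formation, and 78.2 and 27.0 in the recovery neocortex. Its control neocortex read 58.8 in set 1 and lay under the filter level of 19.7 in set 2. Folr1 read 56.0 and 30.7 and then 41.25 and 20.6 in the hippocampal formation, and 39.9 and 14.5 and then 47.7 and 29.0 in the neocortex. The set 2 control neocortex of Folr1 thus also lay under the filter level. Enpp2, or autotaxin, which makes lysophosphatidic acid, read 722 and 514 and then 502 and 380 in the hippocampal formation, and 648 and 443 and then 682 and 490 in the neocortex. Aqp1, a water channel, was at 0.47 and 0.78, with signals no higher than 45.7. The summed signal of the 6 genes was 3742 and 1945 in the control and 1819 and 839 in the recovery hippocampal formation, and 2700 and 678 in the control and 3094 and 1384 in the recovery neocortex. In pooled tissue fewer cells of a type and less RNA per cell cannot be told apart, and the part of choroid plexus tissue in other hippocampal differences was not tested.

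Neocortical neuron markers had a median interaction below 0 as well. Of 18 measured, 11 lay below 0, not far from the share over all probe sets (9078 of 18625). In both sets 9 lay below 0 (23.6% over all). At an unadjusted p under 0.05, 4 lay below 0 and 0 above (background 2.73% and 2.61%). The median was -0.12 (-0.096 and -0.17 by set). The 4 became 0 with no replicate block, 1 when set 2 control was left out and 2 when set 2 recovery was, and when set 2 control was left out 2 members lay above 0 at that p. Foxp2, a deep-layer transcription factor, read 12.2 and 33.6 in the control and 5.41 and 22.5 in the recovery hippocampal formation, under or near the filter level, and 113 and 116 and then 117 and 139 in the neocortex, with an interaction of -1.03 (SE 0.257, adjusted p = 0.642). Cux2, an upper-layer factor, had a value of -0.42 on one probe set and 0.52 on another. The summed signal of the list was 4267 and 5514 in the control and 4339 and 5186 in the recovery hippocampal formation. Mef2c, on its second probe set, was among the 4 below 0 in the main fit. Mef2c, Rprm and Coch above were likewise brighter in the neocortex than in the hippocampal formation. Rprm read 298 and 392 in the control neocortex, and 57.5 and 173 in the control and 35.5 and 74.4 in the recovery hippocampal formation. The part of neocortical tissue in those hippocampal values was not tested.

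Genes away from home cage in both structures set these differences in proportion. The 7 probe sets displaced by at least 0.5 in every set of both structures were Hbb, Bdnf, Sncg and 4 haemoglobin probe sets with several symbols. Hbb, haemoglobin beta, read 2648 and 1348 in the control and 891 and 908 in the recovery hippocampal formation, and 1986 and 1523 in the control and 725 and 936 in the recovery neocortex. Recovery lay below control without overlap in each structure, by 1.07 (SE 0.193) and 1.08 (SE 0.131) on the log2 scale, and the interaction was 0.007 (SE 0.0995, adjusted p = 0.997). Sncg, gamma-synuclein, read 116 and 98.1 and then 217 and 260 in the hippocampal formation, and 43.0 and 46.1 and then 67.0 and 108 in the neocortex, above control in every comparison, with an interaction of 0.23 (SE 0.169, adjusted p = 0.970). Hba-a3, a haemoglobin alpha gene, lay below control by more in the hippocampal formation (-1.44 and -0.94) than in the neocortex (-1.12 and -0.34). Its interaction was -0.46 (SE 0.168, adjusted p of limma 0.869). The 4 haemoglobin probe sets with several symbols had interactions from -0.29 to -0.09. Red cell transcripts were thus lower after recovery in both structures, with a gap between the structures that differed by probe set.

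**Figure D5:**
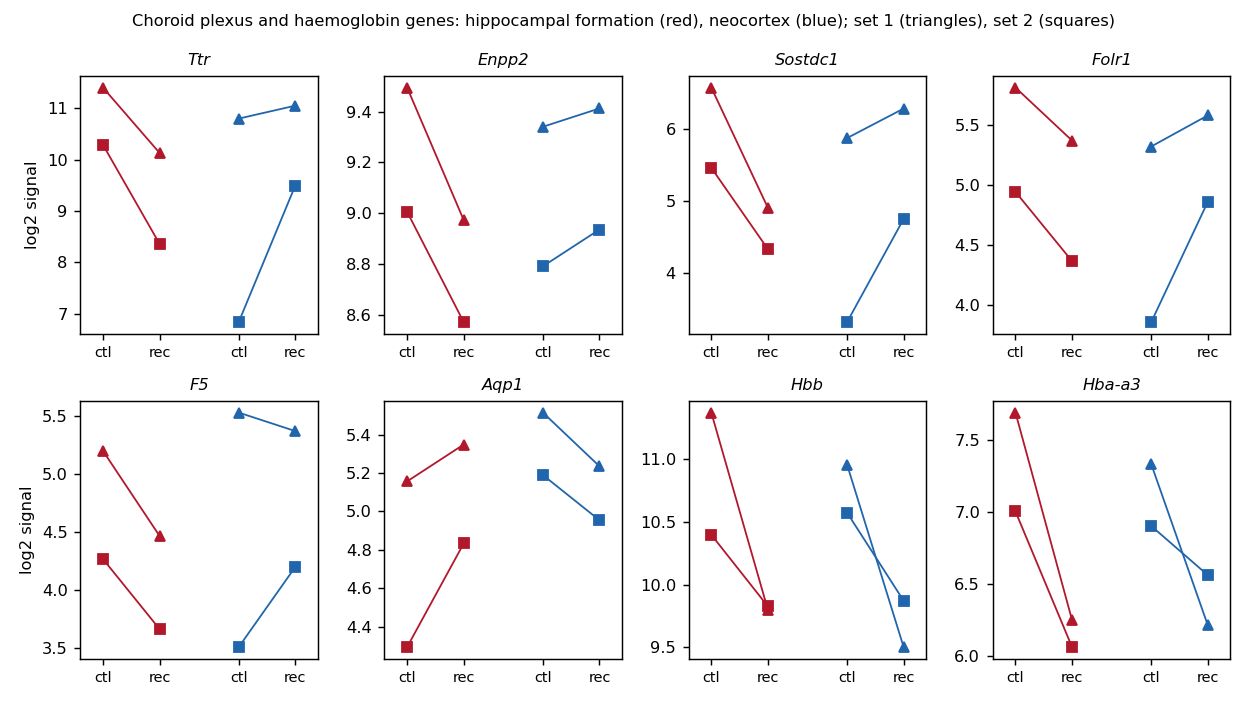
Log2 signal (y axis) of 6 choroid plexus genes and 2 haemoglobin genes in control (ctl) and recovery (rec) pools, hippocampal formation in red and neocortex in blue, triangles for set 1 and squares for set 2, each panel on its own scale. For Ttr, Enpp2, Sostdc1 and Folr1 the red lines go down and the blue lines up in both sets, whereas for Hbb and Hba-a3 all 4 lines go down.

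The list of glucocorticoid-responsive genes was nearer the background. Of 26 measured, 17 lay above 0 (9547 of 18625 over all probe sets), and the median was 0.072. At an unadjusted p under 0.05, 4 lay above 0 (Per1, Mt2A, Nr3c2 and Sgk1) and 0 below (background 2.61% and 2.73%). Of these, Nr3c2, a receptor for corticosterone, was also on the list of hippocampal neuron markers, and Per1 on the activity-regulated and clock lists. The 4 became 1 with no replicate block and 2 when either recovery pool was left out. Sgk1, a kinase that corticosterone induces, read 490 and 512 and then 647 and 622 in the hippocampal formation, without overlap, and 368 and 476 and then 430 and 475 in the neocortex, which overlapped. Fkbp5, a chaperone of the glucocorticoid receptor, depended on the probe set, with 0.60 (SE 0.168, adjusted p = 0.705) on one and 0.046 on the other. Among 20 clock genes 3 lay above 0 at an unadjusted p under 0.05 and 0 below (background 2.61% and 2.73%). They were Per1, Rora (0.89) and Bhlhe40 (0.45), and the list median was 0.049. The 3 became 1 with technical array 2 alone. Rora, a nuclear receptor that drives Bmal1, was below control in the neocortex (64.4 and 40.1 to 39.7 and 31.0) and above it in the hippocampal formation (27.7 and 20.5 to 30.2 and 30.6).

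A measure of RNA quality also differed between the groups. The ratio of 3' to 5' probe set signal for beta-actin was 2.42 and 2.52 in the control and 2.33 and 2.39 in the recovery hippocampal formation, and 2.68 and 2.61 in the control and 3.17 and 2.83 in the recovery neocortex. On the log2 scale its interaction was -0.30 and -0.20, and that of the Gapdh ratio was -0.11 and -0.060. The part of RNA integrity in the interactions above was not tested.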

How the data were processed

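Per the labels' protocols, cRNA with a biotin label was put on Affymetrix rat arrays. The authors deposited an intensity on a linear scale for each of 31099 probe sets, from MAS5 per the submitters' processing notes; version, scaling target and detection calls are not given in the sources used here. The trimmed mean of each array was near 100.03, so arrays had been scaled. Signals under 1 were raised to 1 and log2-transformed without further normalization, 57 control probe sets and the lowest 40% by mean (a signal under 19.7) were left out, and arrays of 1 pool were averaged.

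Differences were tested with limma 3.58.1 under R 4.3.3 (lmFit, then eBayes with trend by intensity) on the 6 hippocampal minus neocortical differences of the 3 states, with state and set as terms (2 residual and 9.33 prior degrees of freedom), and the same terms within a structure. Calls were made where the p adjusted by Benjamini-Hochberg lay under 0.05. Set numbers were treated as pairing because the comparison was posed with the set as a block. The labels do not say whether pools of the same set number in different states share a day or litter. Across probe sets, the deviations of the differences from their state means correlated at 0.459 to 0.537 in every pair of states. P-values measure the spread between pools of 6 rats that is left after state and set, moderated by limma over all probe sets. With no term for the set, 243 probe sets rather than 995 had an unadjusted interaction p of limma under 0.05. Scripts were tested on simulated data.

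Names were given only to probe sets with 1 symbol (20826; 436 had several and 9780 none, control probe sets aside). Lists of genes (28) use the probe set with the highest mean. Named were the 10 genes a direction with the smallest interaction p and a mean log2 signal of at least 6, the named genes of each class and the 3 members of each list with the smallest p; other probe sets of Homer1 and Fkbp5, Bdnf, Sncg, Ptgs2, Junb, Ier5, Cux2, Folr1, Aqp1 and Sgk1 were added with their values in view. The members and lists were chosen with earlier results of these data known. Figures were drawn with matplotlib 3.10.9. Alternatives covered the block, the samples fitted, normalization, floor, filter, technical arrays, trend and each pool left out.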

Additional observations from a re-analysis of the deposited data

How the results depend on the processing

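The count of 0 interactions called by limma was also 0 with no replicate block (243 at an unadjusted p under 0.05), so the block for the set did not change it, and 0 with the pool as a random block, quantile normalization, either other floor, either other filter, either technical array alone and no trend. It was 4 with the recovery and control differences alone and 0 to 113 with 1 pool left out. Calls in the hippocampal formation were 1 with recovery and control alone and 1 to 87 with 1 pool left out. Neocortical calls, 1 in the text, were 0 with no replicate block, with the random block, with no filter and with no trend, 2 with log2(signal + 16) and with technical array 1 alone, 4 with technical array 2 alone, 7 with quantile normalization, 18 with recovery and control alone and 18 to 108 with 1 pool left out. The classes of 1 structure held 3 probe sets with no replicate block and 23 with technical array 1 alone; leaving out a control or recovery pool gave no value, since 1 set remained. List members called were 1 with recovery and control alone and 0 to 9 with 1 pool left out, where a fit has 1 residual degree of freedom and its lone pool is assumed to vary like the others. The cause of these shifts was not tested. The 23 genes of the leading list and the classes were chosen for 1 sign in both sets, which largely fixes their sign under the alternatives. Of their 391 values 18 were called, each with 1 pool left out. No alternative moved the median of all probe sets by as much as 0.1. Each state had 2 pools of animals, which limits precision, and signals near 19.7 carry little above background.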

Other observations

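Among 31 potassium and HCN channel genes, which set how readily a neuron fires again, 5 had an interaction above 0 at an unadjusted p under 0.05 (Kcnv1, Kcnip2, Kcna1, Kcnq3 and Kcna4) and Kcnd3 one below, beside a background of 2.61% and 2.73%, with a median of 0.044. The 5 became 0 with no replicate block, 2 when set 1 recovery was left out and 3 when set 2 recovery was, and 3 genes lay below 0 when set 1 control or set 1 recovery was left out. Kcna4, an A-type channel subunit, read 144 and 164.5 in the control and 174 and 210 in the recovery hippocampal formation, without overlap, and 124 and 135 and then 120 and 129 in the neocortex. Kcnv1, a silent subunit that modifies other channels, read 206 and 209 and then 263 and 232 in the hippocampal formation, also without overlap, and 333 and 419 and then 334 and 380 in the neocortex. Both other kept probe sets of Kcnd3 lay above 0, at 0.11 and 0.17, so its direction is not settled.

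Of 23 presynaptic release genes 3 lay above 0 at an unadjusted p under 0.05 (Sv2b, Syt1 and Cplx2) and 3 below (Vamp2, Sv2a and Slc17a7). The background was 2.61% and 2.73%, and the list median was -0.036. With no replicate block these were 2 and 0. Syt1, the calcium sensor of fast release, read 753 and 681 in the control and 867 and 768 in the recovery hippocampal formation, without overlap, and 869 and 728 and then 701 and 645 in the neocortex, likewise without overlap, with an interaction of 0.43 (SE 0.101, adjusted p = 0.538). Slc17a7, the vesicular glutamate transporter VGLUT1, had an interaction of -0.53 in set 1 and -0.03 in set 2.

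Of 26 receptor genes for monoamines, acetylcholine, adenosine and orexin, 4 lay below 0 at that p (Htr2c, Chrna4, Hrh3 and Drd2) and 0 above. The background was 2.73% and 2.61%, and the list median was 0.11 in set 1 but -0.16 in set 2. Htr2c, a serotonin receptor that the choroid plexus also carries, read 314 and 315 in the control and 402 and 390 in the recovery neocortex, without overlap. Of 18 cytosolic heat shock genes 2 lay below 0 at that p and 0 above, beside the same background. Dnajb5, a co-chaperone, read 114 and 147 in the control and 151 and 222 in the recovery neocortex, without overlap, and 193 and 213 and then 174 and 236 in the hippocampal formation, with an interaction of -0.50 (SE 0.121, adjusted p = 0.602). Its other, dimmer probe sets gave 0.51 and 0.15, so its direction is not settled. Of 26 ribosomal protein genes 22 lay below 0 (9078 of 18625 over all probe sets), 18 of them in both sets (23.6% over all). Their median was -0.064 beside 0.006 over all probe sets.

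Interferon and inflammation genes had a median of 0.37 in set 1 and -0.039 in set 2, and striatal markers 0.15 and -0.47, so neither had 1 direction. Medians were -0.19 for meningeal and fibroblast markers, 0.155 when set 1 recovery was left out, and between -0.11 and 0.074 for the other neuronal, glial and vascular marker lists beside the neocortical, striatal and choroid ones given above. The 3 red cell genes kept had a median of -0.255. They lay between -0.086 and 0.011 for cholesterol synthesis, endoplasmic reticulum chaperones, respiratory chain, glutamate receptors, GABA signalling, neuropeptides and postsynaptic scaffolds.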
